A study of Mus musculus with 18 samples.

Results

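Bone marrow (BM)-derived macrophages from myeloid-specific Slc7a7 knockout mice were compared after 24 h with acetylated LDL (Ac-LDL) or with vehicle. The comparison held 6 of the 18 RNA-Seq libraries, namely the 3 that carry both the Slc7a7-/- genotype and the AcLDL treatment in their labels and the 3 that carry Slc7a7-/- and Control. Each of the 3 mice gave 1 library to each arm, and the libraries were joined in pairs through the mouse number in their names. All 12290 genes that passed a filter on low counts, out of 31053 listed, were tested.

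The wider study asked how Slc7a7, which it links to lipid-associated macrophages of the atherosclerotic plaque, bears on foam cell formation. Its 18 libraries cover knockout and Slc7a7+/+ macrophages, each left in control medium or given Ac-LDL or oxidized LDL (Ox-LDL), with 3 mice per genotype. All mice were 12 weeks old and on the C57Bl/6J background, and in the knockout the deletion is made by Cre under the lysozyme M promoter (LysM-Cre), which is active in myeloid cells. BM cells were grown for 7 days in M-CSF or L-cell medium, seeded at 100000 cells and treated for 24 h with 50 μg/mL Ac-LDL, 100 μg/mL Ox-LDL or, as control, PBS. The labels do not give the share of cultured cells in which the deletion had taken place.

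Macrophages take up Ac-LDL through scavenger receptors, so that uptake is not shut off as the cell fills with cholesterol. Sterol then acts through a pair of opposed regulators. SREBP-2, a membrane-bound transcription factor of the endoplasmic reticulum, is held back when sterol is plentiful, and its targets include the enzymes of cholesterol synthesis. LXR, a nuclear receptor that binds oxysterols, turns on the transporters that carry cholesterol out of the cell. Slc7a7 encodes y+LAT1, the light chain of a transporter that moves cationic amino acids out in exchange for neutral amino acids and sodium.

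Slc7a7 itself (chr14:54369442-54417780, minus strand, GRCm38, GENCODE M21) was low in the knockout. Its level was 10.2, 4.33 and 5.16 CPM, the counts per 1e6 of the library total adjusted by its TMM factor, in the 3 control libraries of the knockout and 2.36, 2.22 and 5.22 CPM in the Ac-LDL libraries. In Slc7a7+/+ libraries it was 11.1, 12.6 and 21.1 CPM in control medium and 28.5, 23.6 and 23.8 CPM with Ac-LDL. The mean was 56.0% lower in the knockout in control medium and 87.1% lower with Ac-LDL, and the genotypes did not overlap in either medium (exact permutation p = 0.1 for each, two-sided, the smallest that 3 against 3 allows). Within the knockout, the log2 fold change of Slc7a7 with Ac-LDL was -0.94 (SE 0.45, adjusted p = 0.384), from 3 to 17 counts per library. The gene overlaps Oxa1l on the opposite strand, and whether strand was used in the counting is not given.

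The 6 libraries held 1267790 to 1768816 counts each, so that 3 counts, taken as the floor, corresponded to 1.67 to 2.36 CPM. Between 8.92 and 10.4% of the counts fell on a single transcript, Gm26917. All 10 macrophage markers were detected, with a summed level of 18395 to 21679 CPM in control and 15621 to 18182 CPM in Ac-LDL libraries, and markers of lymphoid and erythroid cells were at or near 0. Neutrophil markers summed to 52.0 to 141 CPM in control and 25.5 to 64.6 CPM with Ac-LDL, with 2 of the 6 that passed the filter lower and the mature neutrophil genes Ly6g, Cxcr2 and Retnlg at 0 in all 6 libraries. The part of these markers in the results below was not tested.

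With Ac-LDL, 98 genes were higher and 209 lower at an adjusted p under 0.05, or 307 in all, which is 2.50% of the genes tested (0.797% higher and 1.70% lower). Among the falls were genes of cholesterol synthesis and inflammatory genes, and among the rises the cholesterol exporters Abca1 and Abcg1. Of the 307 genes, 302 moved the same way in all 3 mice. Control and Ac-LDL libraries did not overlap for 90 of the genes called higher and 185 of those called lower, against 7.32% and 9.37% of all genes tested. By at least 2-fold, 64 genes fell and 15 rose. As the RNA came from whole cultures, fewer cells of a type and less RNA per cell cannot be told apart in any of these values. With library sizes not adjusted for composition 153 genes were higher and 160 lower. Without the mouse as a term in the model the count was 64 (9 higher, 55 lower), and leaving out any 1 mouse, or any 1 library other than the Ac-LDL library of mouse 1, gave 116 to 204, the lowest without mouse 3. Of 87 called genes named below, 27 were called with any library or mouse left out and under every alternative that gave them an adjusted p, which DESeq2 did not for 3 of them (Mmp14, Gstp1 and Gm32687). Another 8, namely C3, Hpgd, Cd14, Ms4a7, Sqstm1, Stat2, Cd36 and Ccl9, lost the call only where the mouse term was dropped (adjusted p of 0.0626 to 0.74). The other 52 lost it in 1 or more leave-outs, 49 of them also without the mouse term and 19 also by DESeq2, and the values are given with each gene; DESeq2 gave 18 of the 52 no adjusted p.

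**Figure D1:**
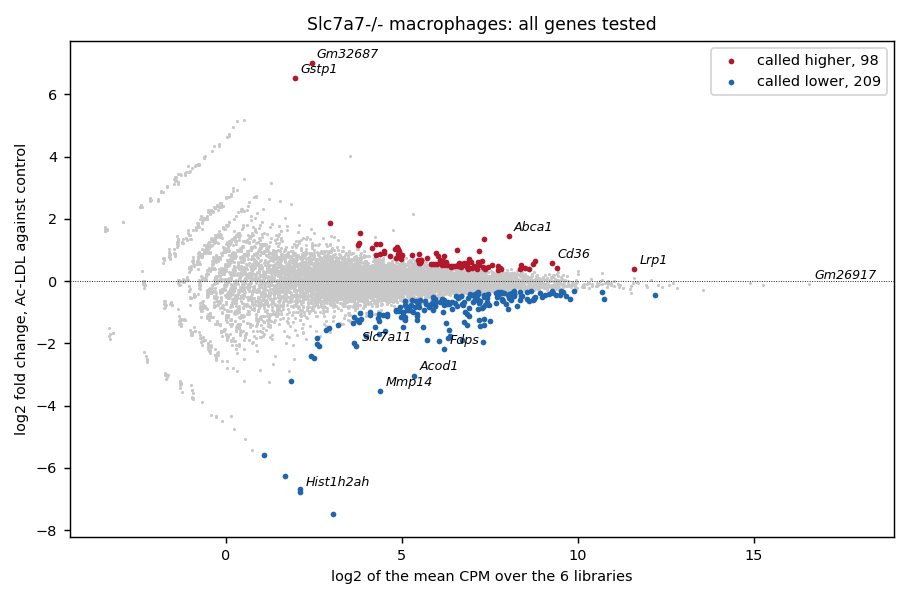
All genes with a mean above 0 CPM over the 6 libraries, by the log2 of that mean (x axis) and the log2 fold change of Ac-LDL against control (y axis); red points are the 98 genes called higher, blue points the 209 called lower and grey points the rest. At mean levels above 5 CPM, among genes with counts in both arms, the blue points reach further from 0 than the red ones. Mmp14 and Acod1 are the lowest of these. The genes at the far edges (Gm32687, Gstp1, Hist1h2ah) had no count in 1 of the arms.

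The mevalonate pathway builds squalene from acetyl-CoA. Of its 10 genes tested, 7 were called lower and 0 higher, with a median log2 fold change of -1.41 against -0.01 over all genes, and all 10 values were negative. Hmgcs1, the cytosolic HMG-CoA synthase, stood at 189, 141 and 171 CPM in control libraries and 41.8, 49.98 and 41.2 CPM with Ac-LDL, a log2 fold change of -1.90 (SE 0.15, adjusted p = 4.73e-11). The highest Ac-LDL library, that of mouse 2, lay below the lowest control library. Idi1, the isopentenyl diphosphate isomerase, fell from 135, 128 and 112 to 38.6, 37.2 and 29.6 CPM, which was -1.83 on the log2 scale (SE 0.15, adjusted p = 1.73e-10).

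Farther along the pathway, Fdps, which makes farnesyl diphosphate, had the largest fall of the list, from 164, 86.7 and 114 to 25.2, 31.7 and 20.3 CPM (-2.19, SE 0.20, adjusted p = 8.46e-10). Mouse 1 had the highest Fdps level of the control libraries, and the control and Ac-LDL libraries did not overlap. Fdft1, the squalene synthase, went from 96.5, 76.8 and 77.4 to 26.8, 24.4 and 16.8 CPM (-1.88, SE 0.17, adjusted p = 9.43e-10). Of the transcript sequence of Fdps, 27.9% is shared with other genes and Fdft1 overlaps Ctsb on the opposite strand, so part of their counts could be assigned elsewhere.

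Of 12 enzymes that turn squalene into cholesterol, 8 were called lower and 0 higher, with a median of -1.34. Sqle, the squalene epoxidase and a control point of the pathway, fell from 113, 99 and 108 to 22.1, 37.2 and 23.8 CPM (-1.93, SE 0.16, adjusted p = 3.72e-10). Cyp51, the lanosterol demethylase, fell from 142, 116 and 126 to 29.9, 51.6 and 31.3 CPM, with a log2 fold change of -1.75 (SE 0.16, adjusted p = 7.50e-10). Msmo1, the methylsterol oxidase, fell from 257, 201 and 197 to 70.1, 96.1 and 71.3 CPM, or by 1.45 on the log2 scale (SE 0.13, adjusted p = 8.46e-10). In each of these genes mouse 2 kept the highest level under Ac-LDL, still below every control library. Lss, the lanosterol synthase, fell by 1.46 (SE 0.20, adjusted p = 9.41e-06).

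Upstream sequences of a few of these genes are given because the group moved together and the factors that act on sterol genes are known to bind close to their starts. RefSeq promoter windows of 300 bases (GRCm38.p6, from 250 bases before to 50 after the start) were found for 7 of the 10 mevalonate genes and 10 of the 12 later ones. CCAAT, the box bound by NF-Y, was searched on both strands. It was present in 6 of the 7 and in 10 of the 10, against 41.1% of all 27025 genes with a window. Over the other lists the share ran from 14.3% (four-span membrane genes) to 88.2% (MHC and antigen presentation genes). It was 87.5% for both the unfolded protein response and the G2/M list, in which 0 genes were called lower. The box is therefore not particular to the sterol genes. The longer TCACNCCAC is a sterol regulatory element of the kind bound by SREBP. These letters were in 1 of the 7 and 0 of the 10, against 1.44% of all genes with a window. Only this string was searched, on both strands. A window without it, that of Cyp51 included, is therefore not shown to lack an element bound by SREBP. The 250 bases before the start follow, with these letters in capitals (ATTGG is CCAAT on the other strand), and overlap of the motifs was allowed.
Hmgcs1, chr13:119690101-119690350, plus strand: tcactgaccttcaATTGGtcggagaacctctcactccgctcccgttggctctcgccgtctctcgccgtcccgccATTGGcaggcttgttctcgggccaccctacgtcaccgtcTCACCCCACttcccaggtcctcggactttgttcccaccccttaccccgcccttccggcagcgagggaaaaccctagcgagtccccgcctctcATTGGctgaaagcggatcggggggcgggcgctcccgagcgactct
Cyp51, chr5:4104698-4104947, minus strand: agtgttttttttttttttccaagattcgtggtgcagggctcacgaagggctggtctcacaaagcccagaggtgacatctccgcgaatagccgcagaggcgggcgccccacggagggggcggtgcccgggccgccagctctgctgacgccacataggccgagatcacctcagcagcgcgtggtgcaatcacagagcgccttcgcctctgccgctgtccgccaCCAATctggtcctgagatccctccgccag
Msmo1, chr8:64733579-64733828, minus strand: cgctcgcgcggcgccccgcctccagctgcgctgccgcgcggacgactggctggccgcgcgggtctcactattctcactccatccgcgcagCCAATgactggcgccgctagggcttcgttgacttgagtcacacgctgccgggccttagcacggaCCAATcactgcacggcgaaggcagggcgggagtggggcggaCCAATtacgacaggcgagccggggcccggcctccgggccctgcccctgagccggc
These are matches of letters, and whether a factor was bound was not measured. The Hmgcs1 flank held TCACNCCAC once and CCAAT 3 times, the Msmo1 flank CCAAT 3 times and the Cyp51 flank CCAAT once.

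Of 13 genes tested that control SREBP or are controlled by it, 4 were called lower and 0 higher. Srebf2, which encodes SREBP-2, fell from 231, 210.5 and 237 to 118, 96.1 and 82.3 CPM (-1.20, SE 0.11, adjusted p = 2.92e-09). Insig1, which retains the SREBP complex in the endoplasmic reticulum, fell by 1.35 (SE 0.14, adjusted p = 3.36e-08), and Stard4, a carrier of cholesterol in the cytosol, by 1.47 (SE 0.19, adjusted p = 3.62e-06). These 3 genes did not overlap between the arms and were called lower without any single library or mouse, by DESeq2 and without the mouse term.

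The calls among genes of cholesterol efflux had the other direction. Of 12 LXR targets and efflux genes tested, 5 rose and 0 fell, with a median of 0.12, so that the list as a whole lay near the median of all genes. Abca1, which loads cholesterol onto apolipoprotein A-I, rose from 79, 169 and 179.9 to 378, 305 and 469 CPM (1.44, SE 0.17, adjusted p = 2.21e-07). Abcg1, which exports cholesterol to high-density lipoprotein, rose from 63.9, 107 and 98 to 226, 189.9 and 278 CPM (1.37, SE 0.14, adjusted p = 9.52e-09). Mouse 1 had the lowest control level of both exporters and mouse 2 the lowest level under Ac-LDL, and neither gene overlapped between the arms.

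Mylip, a ubiquitin ligase and LXR target, rose from 62.7, 49.5 and 45.8 to 93.8, 85 and 101 CPM, by 0.82 on the log2 scale (SE 0.14, adjusted p = 2.51e-04). Arl4c, a small GTPase and LXR target, was higher in every mouse, from 98.9, 106 and 93.5 to 208, 179 and 196 CPM (0.97, SE 0.11, adjusted p = 1.64e-07). Apoe, the apolipoprotein that macrophages secrete with cholesterol, was higher in each mouse, but its arms overlapped (543, 430.2 and 737 against 946, 474 and 923 CPM; 0.43, SE 0.12, adjusted p = 0.0306). With 1 library or mouse left out in turn, the call was lost for Apoe (in 6 of the 9, adjusted p up to 0.519). Without the mouse term the adjusted p was 0.744 for Apoe, and DESeq2 gave 0.214 for Apoe.

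**Figure D2:**
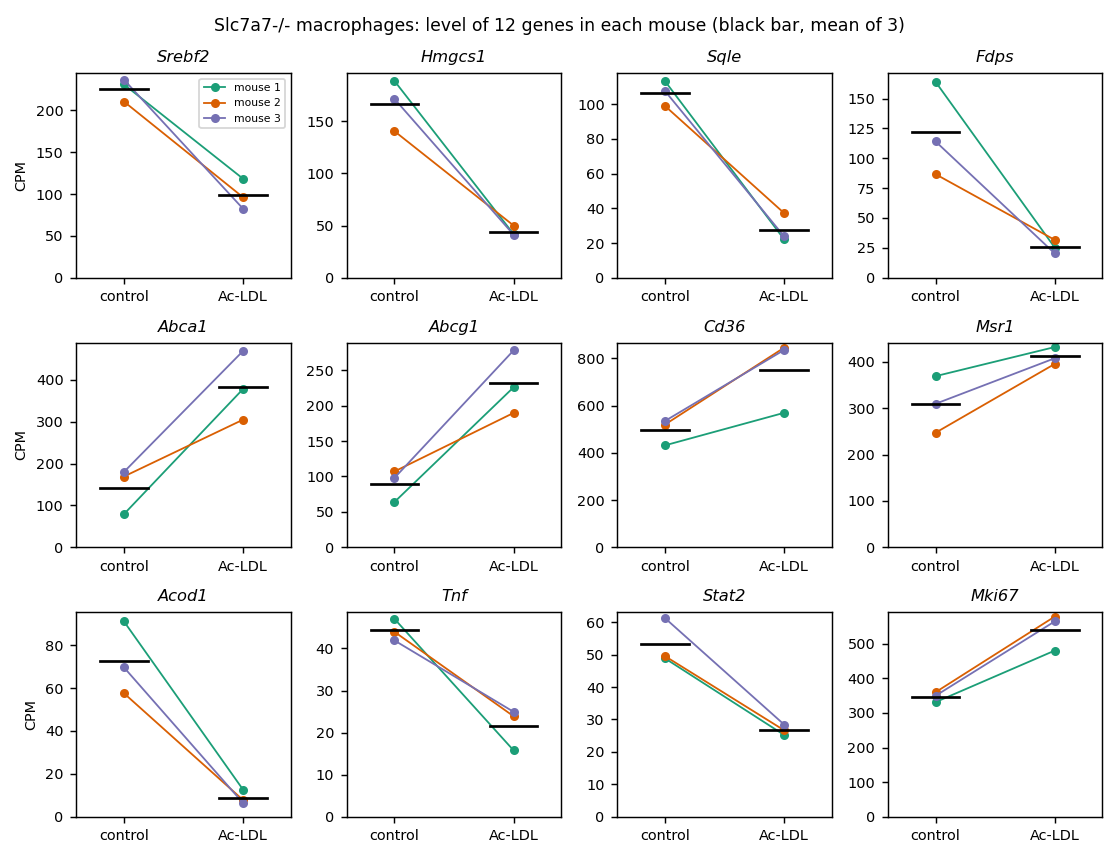
Level of 12 genes in CPM (y axes, from 0) in the control and Ac-LDL library of each Slc7a7-/- mouse; coloured points joined by a line are 1 mouse and black bars are means of 3. Srebf2, Hmgcs1, Sqle, Fdps, Acod1, Tnf and Stat2 fall in every mouse, Abca1, Abcg1, Cd36, Msr1 and Mki67 rise in every mouse, and the arms of none of the 12 genes overlap.

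Of 16 genes of fatty acid synthesis and desaturation, 4 were called lower and 0 higher (median -0.50). Fasn, the fatty acid synthase, fell from 86.8, 102 and 102 to 39.4, 52.2 and 53.3 CPM, -0.995 on the log2 scale (SE 0.15, adjusted p = 3.09e-05). Aacs, which activates acetoacetate for lipid synthesis, fell from 66.9, 57 and 60.6 to 24.4, 23.9 and 28.4 CPM (-1.25, SE 0.18, adjusted p = 2.16e-05). Acly, which supplies cytosolic acetyl-CoA, fell less, by 0.55 (SE 0.12, adjusted p = 0.00352), and the desaturase Scd2 by 1.14 (SE 0.22, adjusted p = 0.0015). The desaturase Fads2 had -1.25 and did not pass the test (SE 0.39, adjusted p = 0.09), with 22.3, 18.6 and 7.09 CPM in control libraries and 7.88, 6.11 and 5.22 CPM with Ac-LDL. Lost in at least 1 of the 9 leave-outs was the call for Scd2 (without the control library of mouse 1 or the Ac-LDL library of mouse 3, adjusted p up to 0.102) and Acly (in 4 of the 9, up to 0.0904). Dropping the mouse term gave an adjusted p of 0.0661 for Scd2.

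Among 12 scavenger receptors, 3 were higher and 1 lower. Cd36, a receptor for oxidized lipoproteins and fatty acids, rose from 432, 520.0 and 535 to 569.7, 846 and 836 CPM (0.58, SE 0.10, adjusted p = 2.50e-04). Msr1, the class A receptor that binds Ac-LDL, rose from 369, 247 and 309 to 432, 395 and 408 CPM (0.43, SE 0.10, adjusted p = 0.011), and the endocytic receptor Lrp1 rose by 0.38 (SE 0.10, adjusted p = 0.0317). Cxcl16, a chemokine whose membrane form binds oxidized lipoprotein, fell from 331, 283 and 330.1 to 255, 202 and 228 CPM (-0.47, SE 0.09, adjusted p = 0.00178). All 4 had arms that did not overlap. Scarb1, the receptor for high-density lipoprotein, had -0.34 (SE 0.12, adjusted p = 0.173). Dependent on single libraries or mice was the call for Cxcl16 (without mouse 3, adjusted p up to 0.0925), Msr1 (in 5 of the 9, up to 0.309) and Lrp1 (in 8 of the 9, up to 0.257). With the mouse term dropped the adjusted p was 0.185 for Cxcl16, 0.447 for Msr1 and 0.586 for Lrp1, and DESeq2 gave 0.157 for Lrp1.

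Genes of lipid storage gave few calls. Of 20 PPAR targets and lipid droplet genes, 2 were lower and 0 higher (median -0.08). Plin2, the coat protein of lipid droplets, was 558, 568 and 516 CPM in control libraries and 539, 516 and 490.0 CPM with Ac-LDL (-0.09, SE 0.09, adjusted p = 0.768), and the cholesterol esterifying enzyme Soat1 had -0.13 (SE 0.09, adjusted p = 0.635). The fatty acid binding protein Fabp5 fell from 218, 194 and 216 to 159, 129 and 114 CPM (-0.65, SE 0.12, adjusted p = 8.40e-04) and the acyl-CoA synthetase Acsl1 from 114, 118 and 129 to 69.3, 77.2 and 58.6 CPM (-0.81, SE 0.13, adjusted p = 1.68e-04). Fabp4, another lipid carrier, had -0.85 (SE 0.32, adjusted p = 0.192). The leave-outs ended the call for Fabp5 (without the Ac-LDL library of mouse 3 or mouse 3, adjusted p up to 0.0854). In the model without the mouse term the adjusted p was 0.58 for Fabp5.

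Of 12 markers of lipid-associated macrophages 2 were lower and 0 higher, with a median of -0.11. The 2 were Fabp5 and the tetraspanin Cd63 (-0.37, SE 0.10, adjusted p = 0.0278). Trem2, the lipid-sensing receptor that defines these cells, was 370.2, 447 and 416 CPM in control libraries and 379.8, 451 and 444 CPM with Ac-LDL (0.05, SE 0.09, adjusted p = 0.901). For Gpnmb the difference was -0.18 (SE 0.10, adjusted p = 0.481), and for Spp1 (osteopontin) -0.13 (SE 0.10, adjusted p = 0.695). Of 33 lysosomal genes, 2 were lower and 0 higher (median -0.10), namely Cd63 again and the cathepsin Ctsz (-0.52, SE 0.11, adjusted p = 0.0023), while Lipa, the lysosomal acid lipase that frees cholesterol from taken-up lipoprotein, had -0.00 (SE 0.09). Leaving out a single library or mouse ended the call for Cd63 (in 9 of the 9, adjusted p up to 0.307) and Ctsz (without the Ac-LDL library of mouse 3, mouse 2 or mouse 3, up to 0.0788). Once the mouse term was removed the adjusted p was 0.591 for Cd63 and 0.24 for Ctsz, and DESeq2 gave 0.0617 for Cd63. The call for Cd63 was also lost with library sizes not adjusted for composition.

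Of 21 inflammatory genes tested, 10 were called lower and 0 higher, with a median of -0.75 and 18 negative values. DESeq2 called 5 of them lower and the model without the mouse term 6. Acod1, the enzyme that makes itaconate, was 91, 57.6 and 69.6 CPM in control libraries and 12.6, 7.77 and 6.38 CPM with Ac-LDL, an 8.2-fold fall (-3.04, SE 0.27, adjusted p = 6.21e-10). Tnf fell from 47, 44 and 41.9 to 15.8, 23.9 and 24.9 CPM (-1.04, SE 0.22, adjusted p = 0.00317), with no overlap. With 1 library or mouse left out in turn, the call was lost for Tnf (without the control library of mouse 1, the Ac-LDL library of mouse 1 or mouse 1, adjusted p up to 0.112). Without the mouse term the adjusted p was 0.131 for Tnf, and DESeq2 gave 0.0648 for Tnf.

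Targets of NF-kB were among the others. Nfkbia, its inhibitor, fell by 0.71 (SE 0.11, adjusted p = 9.95e-05), the manganese superoxide dismutase Sod2 by 1.30 (SE 0.13, adjusted p = 1.01e-08), the adhesion molecule Icam1 by 1.07 (SE 0.11, adjusted p = 2.13e-08) and Tnfaip2 by 0.79 (SE 0.10, adjusted p = 5.16e-07). Gpr84, a receptor for medium-chain fatty acids, went from 16.9, 27.2 and 16.1 to 5.52, 4.998 and 4.64 CPM (-1.98, SE 0.38, adjusted p = 0.00152). Il1b stood at 0.555 to 1.93 CPM in all 6 libraries, at or below the floor of 3 counts, and no fold is given for it. The C-type lectin Clec4e, in none of the lists and named after its values were seen, also fell (324, 195 and 195 to 103, 85.5 and 74.2 CPM; -1.41, SE 0.12, adjusted p = 2.10e-10). Lost in at least 1 of the 9 leave-outs was the call for Gpr84 (without the control library of mouse 2 or mouse 2, adjusted p up to 0.148).

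Interferon-stimulated genes leaned the same way. Of 42 tested, 9 were lower and 0 higher, 40 had negative values and the median was -0.51. Stat2, a subunit of the factor through which type I interferon acts, fell from 48.8, 49.5 and 61.2 to 25.2, 26.7 and 28.4 CPM (-0.99, SE 0.17, adjusted p = 2.24e-04), with no overlap. Ddx58, which encodes the RNA sensor RIG-I, fell from 58.5, 73.7 and 96.1 to 45.7, 47.2 and 41.7 CPM (-0.75, SE 0.15, adjusted p = 0.00233). The 3 mice were unequal here: mouse 3 had the highest control level of Stat2, Ddx58, Rsad2 and Ifit1.

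Rsad2 (viperin) went from 15.1, 31 and 38 to 5.52, 17.8 and 13.3 CPM (-1.19, SE 0.27, adjusted p = 0.00688), and Ifit1, a sensor of foreign RNA ends, from 15.1, 24.1 and 48.3 to 5.52, 16.1 and 13.9 CPM (-1.27, SE 0.28, adjusted p = 0.00606). In both genes the Ac-LDL library of mouse 2 lay above the control library of mouse 1, although every mouse fell. Ifit3 had -1.58 (SE 0.31, adjusted p = 0.00152), but shares 61.8% of its transcript sequence with Ifit3b. Without mouse 3, or without its control or its Ac-LDL library alone, 1 interferon-stimulated gene was called in place of 9, as was 1 by DESeq2, and without the mouse term 0 were. Dependent on single libraries or mice was the call for Ddx58 (without the control library of mouse 3, the Ac-LDL library of mouse 3 or mouse 3, adjusted p up to 0.296), Rsad2 (without the control library of mouse 3, the Ac-LDL library of mouse 3 or mouse 3, up to 0.246), Ifit1 (without the control library of mouse 3, the Ac-LDL library of mouse 3 or mouse 3, up to 0.414) and Ifit3 (without the control library of mouse 3, the Ac-LDL library of mouse 3 or mouse 3, up to 0.246). Dropping the mouse term gave an adjusted p of 0.573 for Ddx58, 0.745 for Rsad2, 0.624 for Ifit1 and 0.476 for Ifit3, and DESeq2 gave 0.0923 for Ddx58.

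Promoter windows were found for 31 of the 42 genes. They were searched on both strands for GAAANNGAA, letters of the element bound by the interferon-activated factor. Of the 31 genes, 21 held this motif, against 9.76% of all genes with a window. In the other lists with windows the share ran from 0% (scavenger receptors among them) to 42.9% (four-span membrane genes). Among the 8 genes called lower that had a window, 6 held it. Whether holding the motif goes with the fall was not tested. The 250 bases before the start of Stat2 and Rsad2 follow with the match, read on the other strand in both, in capitals, as genes of this list called lower.
Stat2, chr10:128270248-128270497, plus strand: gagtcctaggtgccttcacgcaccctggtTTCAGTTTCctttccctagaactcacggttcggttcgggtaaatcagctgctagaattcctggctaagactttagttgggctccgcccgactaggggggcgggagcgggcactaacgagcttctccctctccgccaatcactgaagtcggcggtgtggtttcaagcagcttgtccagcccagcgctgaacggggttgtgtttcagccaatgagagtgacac
Rsad2, chr12:26456453-26456702, minus strand: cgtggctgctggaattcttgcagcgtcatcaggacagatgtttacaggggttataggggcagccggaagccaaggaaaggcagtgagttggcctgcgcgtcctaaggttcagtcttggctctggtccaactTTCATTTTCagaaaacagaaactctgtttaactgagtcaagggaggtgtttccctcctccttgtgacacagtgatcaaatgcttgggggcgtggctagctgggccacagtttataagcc
Each flank held 1 match. As above, the match is a description of the letters and says nothing of binding in these cells.

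Pattern recognition, complement and chemokine genes gave few calls per list. Tlr2, the receptor for bacterial lipopeptides, fell from 234, 176 and 195 to 125, 104 and 100.3 CPM (-0.87, SE 0.11, adjusted p = 5.16e-07) and its co-receptor Cd14 from 440.1, 512 and 576 to 300.2, 342 and 369 CPM (-0.59, SE 0.08, adjusted p = 1.34e-05), while Tlr4 had 0.00 (SE 0.10); they were the 2 of 15 genes of their list that were called. In the complement list of 14 genes, the central component C3 fell from 239, 254 and 278 to 115, 98.8 and 108 CPM (-1.26, SE 0.13, adjusted p = 9.52e-09). None of these 3 called genes was lost without a library or mouse.

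Of 16 chemokines and receptors, 3 were lower and 1 higher. Ccl9, a CC chemokine of macrophages, fell from 1080.5, 1015 and 1075 to 697, 700.3 and 707 CPM (-0.59, SE 0.11, adjusted p = 0.00105). Cxcl2, which attracts neutrophils, had -1.31 (SE 0.37, adjusted p = 0.0451), and Ccl3 -0.78 (SE 0.30, adjusted p = 0.213). Of 23 immediate early genes, Fos (-0.55, SE 0.10, adjusted p = 8.40e-04) and Junb (-0.59, SE 0.12, adjusted p = 0.00165) were lower and Jun was higher (0.38, SE 0.11, adjusted p = 0.046), so that the partners of the AP-1 factor did not move together. The leave-outs ended the call for Cxcl2 (in 7 of the 9, adjusted p up to 0.496), Fos (without the Ac-LDL library of mouse 3 or mouse 3, up to 0.0865), Junb (without the control library of mouse 3 or mouse 3, up to 0.0718) and Jun (in 8 of the 9, up to 0.39). With the mouse term dropped the adjusted p was 0.494 for Cxcl2, 0.464 for Fos, 0.0512 for Junb and 0.347 for Jun, and DESeq2 gave 0.166 for Jun. The call for Cxcl2 was also lost with library sizes not adjusted for composition and with the default filter of edgeR.

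Antigen presentation, membrane and lipid mediator genes gave small differences. Of 22 MHC and antigen presentation genes 3 were lower and 0 higher (median -0.30): Tapbp, the tapasin that loads class I molecules (-0.49, SE 0.11, adjusted p = 0.00485), H2-K1 (-0.38, SE 0.09, adjusted p = 0.0088) and B2m (-0.36, SE 0.09, adjusted p = 0.0278), all of class I. H2-Aa and Cd74 of class II had -0.30 (SE 0.18, adjusted p = 0.543) and -0.29 (SE 0.12, adjusted p = 0.273). Among 15 eicosanoid enzymes, Hpgd, which inactivates prostaglandins, rose in every mouse from 48.8, 48.3 and 89.6 to 151, 74.4 and 156 CPM (1.01, SE 0.14, adjusted p = 1.12e-05), and Pla2g7, a lipoprotein-associated phospholipase, fell by 0.48 (SE 0.11, adjusted p = 0.00603). The arms of Hpgd overlapped, as mouse 3 began higher than mouse 2 ended. Leaving out a single library or mouse ended the call for Tapbp (in 5 of the 9, adjusted p up to 0.125), H2-K1 (in 5 of the 9, up to 0.323), B2m (in 6 of the 9, up to 0.536) and Pla2g7 (in 5 of the 9, up to 0.181). In the model without the mouse term the adjusted p was 0.313 for Tapbp, 0.494 for H2-K1, 0.528 for B2m and 0.759 for Pla2g7. The call for B2m was also lost with library sizes not adjusted for composition.

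Among 13 Siglecs and inhibitory receptors, Cd33 rose from 9.65, 6.81 and 7.74 to 30.7, 9.996 and 18 CPM (1.21, SE 0.31, adjusted p = 0.0205). Siglece, another inhibitory Siglec, fell from 9.04, 6.81 and 11.6 to 0.788, 1.67 and 2.32 CPM (-2.39, SE 0.62, adjusted p = 0.0242), at 1 to 4 counts per Ac-LDL library. The inhibitory receptors Pirb and Clec4a1 were lower by 0.41 (SE 0.09, adjusted p = 0.00374) and 0.61 (SE 0.14, adjusted p = 0.0119), with 43.8% of the Pirb sequence shared with its relatives. Of 8 four-span membrane genes, Ms4a7 (-0.76, SE 0.12, adjusted p = 6.43e-05) and Tmem176b (-0.94, SE 0.25, adjusted p = 0.0283) were lower; Tmem176b overlaps Tmem176a on the other strand. None of 8 resident macrophage markers was called by DESeq2 or by edgeR in the main model of all 18 libraries. In other edgeR runs 1 was called higher with library sizes not adjusted for composition, 1 without mouse 1 and 2 with the 6 compared libraries alone. In the main model 4 had an unadjusted p under 0.05, Folr2 included (44.6, 82.3 and 68.3 to 41, 134 and 100.3 CPM, log2 fold change 0.46, SE 0.14, adjusted p = 0.0749). With 1 library or mouse left out in turn, the call was lost for Cd33 (in 5 of the 9, adjusted p up to 0.346), Siglece (in 9 of the 9, up to 0.225), Pirb (in 5 of the 9, up to 0.118), Clec4a1 (in 6 of the 9, up to 0.19) and Tmem176b (in 7 of the 9, up to 0.34). Once the mouse term was removed the adjusted p was 0.355 for Cd33, 0.0758 for Siglece, 0.51 for Pirb, 0.728 for Clec4a1 and 0.695 for Tmem176b, and DESeq2 gave 0.131 for Cd33, 0.185 for Clec4a1 and 0.421 for Tmem176b.

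The largest fall of a gene with counts in every library was that of Mmp14 (chr14:54431612-54445364, plus strand), a membrane-bound metalloproteinase that cleaves collagen. It went from 53.7, 24.1 and 38 to 6.30, 1.67 and 2.32 CPM, an 11.6-fold difference (-3.54, SE 0.34, adjusted p = 2.92e-09), on 39 to 89 counts in control and 3 to 8 in Ac-LDL libraries. Lox, which crosslinks collagen, fell from 12.7, 10.5 and 7.74 to 2.36, 1.67 and 2.90 CPM (-2.10, SE 0.53, adjusted p = 0.0221), and these were the 2 called of 18 matrix genes. The transcription factor Mycl (-2.48, SE 0.59, adjusted p = 0.0139) and Cdc42ep2, an effector of the GTPase Cdc42 (-2.01, SE 0.53, adjusted p = 0.0283), also stood among the 10 largest falls, each with 1 to 5 counts per Ac-LDL library. Cav1 (caveolin-1), named after its values were seen, fell by 1.11 (SE 0.13, adjusted p = 3.02e-07). Lost in at least 1 of the 9 leave-outs was the call for Lox (in 9 of the 9, adjusted p up to 0.251), Mycl (in 6 of the 9, up to 0.297) and Cdc42ep2 (in 8 of the 9, up to 0.39). Without the mouse term the adjusted p was 0.0932 for Lox and 0.0796 for Cdc42ep2.

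Beside the cholesterol exporters and Cd33, the 10 largest rises held 2 neighbours on chromosome 7. Dmwd went from 7.84, 1.24 and 1.29 to 14.2, 11.7 and 10.4 CPM (1.87, SE 0.46, adjusted p = 0.0156) and Dmpk, the myotonic dystrophy kinase that lies just downstream on the same strand, from 6.03, 6.81 and 8.38 to 27.6, 17.8 and 17.4 CPM (1.53, SE 0.38, adjusted p = 0.0183). Nes (nestin) rose from 12.1, 23.5 and 19.3 to 23.6, 47.8 and 47 CPM (1.10, SE 0.22, adjusted p = 0.00251), and Pbx3, a homeobox factor, by 1.17 (SE 0.32, adjusted p = 0.0418). None of the 4 overlapped between the arms, and Dmwd ranged from 1.24 to 7.84 CPM in the control libraries. Dependent on single libraries or mice was the call for Dmwd (in 6 of the 9, adjusted p up to 0.254), Dmpk (in 8 of the 9, up to 0.286), Nes (without the control library of mouse 3, mouse 2 or mouse 3, up to 0.118) and Pbx3 (in 7 of the 9, up to 0.523). Dropping the mouse term gave an adjusted p of 0.192 for Dmwd, 0.192 for Dmpk, 0.441 for Nes and 0.293 for Pbx3.

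A few genes of cell division were called higher with Ac-LDL and none lower. Of 38 S-phase genes, 4 were called higher and 0 lower (median 0.45, 35 positive), and of 28 G2/M genes 4 were higher and 0 lower (median 0.40, 27 positive). Mki67, the proliferation marker Ki-67, rose from 331, 359.7 and 349 to 479.9, 578 and 564 CPM (0.64, SE 0.14, adjusted p = 0.00485). Pola1, the catalytic subunit of DNA polymerase alpha, rose from 38, 41.5 and 53.5 to 69.3, 91.1 and 86.4 CPM (0.89, SE 0.17, adjusted p = 8.40e-04). Neither overlapped, and mouse 1 had the lowest Ac-LDL level of both. The leave-outs ended the call for Mki67 (without the control library of mouse 3, mouse 2 or mouse 3, adjusted p up to 0.0813) and Pola1 (without mouse 2, up to 0.0535). With the mouse term dropped the adjusted p was 0.28 for Mki67 and 0.0775 for Pola1, and DESeq2 gave 0.196 for Mki67.

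The other calls were Tk1, Lig1 and Exo1 of S phase, at 0.84, 0.63 and 0.91, and Cenpe, Cenpf and Kif23 of mitosis, at 0.50, 0.51 and 0.53. Rad51ap1, a factor of homologous recombination (15.7, 11.8 and 7.74 to 24.4, 31.1 and 24.9 CPM; 1.18, SE 0.26, adjusted p = 0.00688), and Esco2, which acetylates cohesin (12.1, 12.4 and 13.5 to 22.1, 29.99 and 34.2 CPM; 1.19, SE 0.27, adjusted p = 0.00817), were among the 10 largest rises. Rrm2 and Cdk1 did not pass the test and did not move together across mice: both were lower with Ac-LDL in mouse 1 and higher in mice 2 and 3. Both lists had 0 calls without the mouse term, and DESeq2 called 0 G2/M genes and 1 S-phase gene. Without mouse 2 or mouse 3, too, 0 G2/M genes and 1 S-phase gene were called. Leaving out a single library or mouse ended the call for Tk1 (in 6 of the 9, adjusted p up to 0.306), Lig1 (in 5 of the 9, up to 0.358), Exo1 (in 8 of the 9, up to 0.326), Cenpe (in 8 of the 9, up to 0.217), Cenpf (in 8 of the 9, up to 0.34), Kif23 (in 8 of the 9, up to 0.331), Rad51ap1 (in 5 of the 9, up to 0.171) and Esco2 (in 5 of the 9, up to 0.153). In the model without the mouse term the adjusted p was 0.302 for Tk1, 0.326 for Lig1, 0.192 for Exo1, 0.302 for Cenpe, 0.312 for Cenpf, 0.263 for Kif23, 0.0539 for Rad51ap1 and 0.0671 for Esco2, and DESeq2 gave 0.133 for Tk1, 0.134 for Lig1, 0.187 for Cenpe, 0.136 for Cenpf and 0.241 for Kif23.

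Amino acid genes, the group to which Slc7a7 belongs, showed few differences. Of 21 amino acid transporters only Slc7a11 was called by edgeR. This cystine importer fell from 35.6, 17.3 and 11.6 to 4.73, 3.33 and 5.80 CPM (-2.08, SE 0.39, adjusted p = 0.00105), and its control level in mouse 1 was the highest. The heavy chain Slc3a2, which pairs with y+LAT1, was 231, 203 and 205 CPM in control libraries and 221, 179 and 187 CPM with Ac-LDL (-0.13, SE 0.09, adjusted p = 0.647). The related light chain Slc7a6 had -0.09 (SE 0.27, adjusted p = 0.952) and the glutamine carrier Slc1a5 0.10 (SE 0.24, adjusted p = 0.933). With 1 library or mouse left out in turn, the call was lost for Slc7a11 (without the Ac-LDL library of mouse 1 or mouse 1, adjusted p up to 0.11). Once the mouse term was removed the adjusted p was 0.0917 for Slc7a11.

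Of 15 genes of arginine and glutamine metabolism, Ass1, which makes argininosuccinate, was lower (48.2, 30.3 and 34.2 to 22.9, 21.1 and 14.5 CPM; -0.93, SE 0.22, adjusted p = 0.0124), with 43.1% of its sequence shared with Gm5424. Glutamine synthetase (Glul) had -0.14 (SE 0.11, adjusted p = 0.674). In the list of 23 targets of ATF4, the factor of the amino acid stress response, only Cebpb was called by edgeR (-0.87, SE 0.18, adjusted p = 0.00347), while Atf4 itself had 0.02 (SE 0.13) and Asns -0.34 (SE 0.23). Of 21 NRF2 targets 3 were lower and 0 higher: Slc7a11, the autophagy receptor Sqstm1 (-0.54, SE 0.09, adjusted p = 2.24e-04) and the ferritin chain Fth1 (-0.43, SE 0.10, adjusted p = 0.00981). Hmox1 and Nqo1, much used markers of NRF2, had 0.22 (SE 0.11, adjusted p = 0.408) and -0.27 (SE 0.25, adjusted p = 0.755). Lost in at least 1 of the 9 leave-outs was the call for Ass1 (in 6 of the 9, adjusted p up to 0.245), Cebpb (without the control library of mouse 2, mouse 2 or mouse 3, up to 0.0896) and Fth1 (in 6 of the 9, up to 0.192). Without the mouse term the adjusted p was 0.211 for Ass1, 0.718 for Cebpb and 0.845 for Fth1, and DESeq2 gave 0.193 for Ass1 and 0.13 for Cebpb.

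Of 21 glycolysis and hypoxia genes 1 was called, the aldolase Aldoc, which fell from 77.8, 48.3 and 48.3 to 41.8, 28.9 and 27.3 CPM (-0.83, SE 0.16, adjusted p = 0.00175). Dependent on single libraries or mice was the call for Aldoc (without the control library of mouse 1, adjusted p up to 0.0552). Dropping the mouse term gave an adjusted p of 0.23 for Aldoc, and DESeq2 gave 0.0617 for Aldoc. No gene of the unfolded protein response (20 tested), no cytosolic ribosomal protein gene (78) and no mitochondrially encoded gene (13) was called by edgeR or by DESeq2, where 3, 10 and 0 of them had an unadjusted p under 0.05 in edgeR. Among the ribosomal genes 77 of 78 values were negative, with a median of -0.16 and the lowest at -0.28. The median of that list was -0.10 with library sizes not adjusted for composition. Gm26917 had -0.10 (SE 0.11, adjusted p = 0.802).

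A few calls rest on transcripts that share most of their sequence or sit at 0 in 1 arm. Gstp1 had no count in the 3 control libraries and 10 to 13 counts in the Ac-LDL libraries, at least 4.17-fold higher against 3 counts per library, whereas its neighbour Gstp2 had 12 to 17 counts in control and 0 with Ac-LDL. The sum of both was 10.2, 7.43 and 8.38 CPM in control and 10.2, 5.55 and 7.54 CPM with Ac-LDL, so that together they differed by less than the spread between mice. Gm32687, of which 96.0% is shared with Zfp433, was at 0 in control and at least 5.80-fold higher with Ac-LDL. Other genes at or under 3 counts in every Ac-LDL library and called lower were Hist1h2ah, Gm45837, Gm10053, Rasgrp1 and H2-M2, named after their values were seen. Hist1h2ah, at least 4.50-fold lower and with 91.2% of its sequence shared, was the 1 called of 63 clustered histone genes, whose median was 0.00. The leave-outs ended the call for Hist1h2ah (without the control library of mouse 2, the Ac-LDL library of mouse 2 or mouse 2, adjusted p up to 0.712). With the mouse term dropped the adjusted p was 0.274 for Hist1h2ah.

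**Figure D3:**
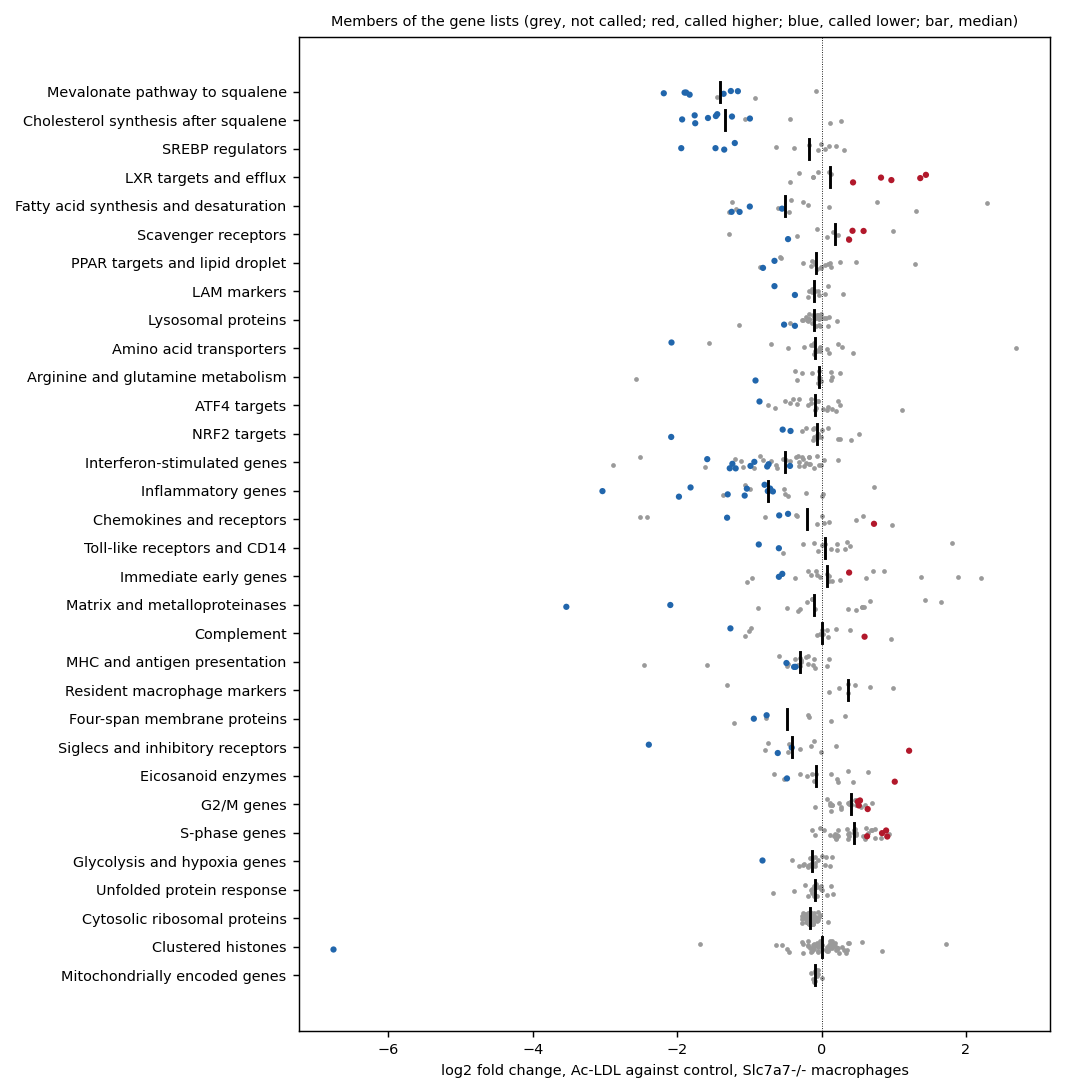
Log2 fold change of Ac-LDL against control (x axis) for the tested members of 32 gene lists (rows); each point is 1 gene, red where called higher, blue where called lower and grey where not called, and black bars are list medians. The 2 cholesterol synthesis lists have medians of -1.41 and -1.34, inflammatory genes -0.75 and interferon-stimulated genes -0.51, while the G2/M and S-phase lists lie at 0.40 and 0.45 and most other lists near 0.

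The same treatment of Slc7a7+/+ macrophages called 89 genes higher (0.724% of those tested) and 176 lower (1.43%). Of the 307 genes called in the knockout, 153 were also called in Slc7a7+/+ cells, 38 higher and 115 lower in both and 0 in opposite directions. This is 49.8% of the knockout calls and 57.7% of the Slc7a7+/+ calls. The sign was the same in Slc7a7+/+ cells for 293 of the 307, or 95.4%, against 60.9% of all genes tested. A gene called in 1 genotype only is not thereby shown to differ between them, and the difference of the log2 fold changes was therefore tested in the same model.

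This difference was called for 5 genes, or 0.0407% of those tested, Ngp, Gstp1, Gm32687 and Hist1h2ah among them.

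Genes of cholesterol synthesis mostly had differences of 1 sign. The difference was positive for all 10 mevalonate genes, which is a smaller fall in the knockout. It was also positive for 11 of the 12 later enzymes, but 2 of those 12 did not fall in the knockout. The list medians were 0.40 and 0.58 against -0.01 over all genes. In the 2 lists 3 and 5 genes had an unadjusted p under 0.05, as did 474 of all genes tested. The difference was 0.82 for Idi1 (SE 0.24, adjusted p = 0.767) and 0.61 for Srebf2 (SE 0.18, adjusted p = 0.767), neither past the threshold. Lss and Hmgcs1 had the smallest differences of the sterol enzymes named here, 0.07 (SE 0.31) and 0.11 (SE 0.22). Differences mostly of 1 sign were not particular to the sterol genes. The difference was positive for 0 of 12 markers of lipid-associated macrophages, with a median of -0.13. It was positive for 4 of 33 lysosomal genes and 14 of 78 cytosolic ribosomal protein genes, against 6054 of all 12290 genes tested. No difference in these other lists passed the test.

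The rise of the exporters had a smaller estimate in the knockout, by 0.59 for Abca1 (SE 0.24, adjusted p = 1) and 0.56 for Abcg1 (SE 0.21, adjusted p = 1), and neither difference passed the test. For Aldoc the fall was -1.86 in Slc7a7+/+ cells and -0.83 in the knockout (difference 1.03, SE 0.25, adjusted p = 0.254). Slc7a7 itself had 0.73 with Ac-LDL in Slc7a7+/+ cells and -0.94 in the knockout, a difference of -1.67 (SE 0.53, adjusted p = 1). Among interferon-stimulated genes, Stat2 and Ifit3 had differences of -0.64 (SE 0.25) and -1.48 (SE 0.45), which were not past the threshold either.

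**Figure D4:**
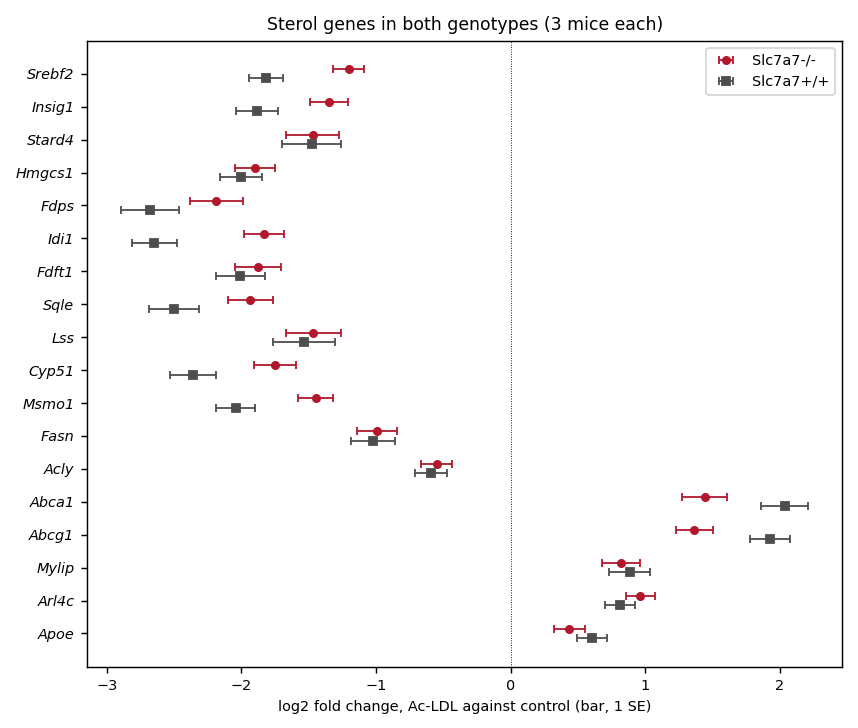
Log2 fold change of Ac-LDL against control (x axis) for 18 sterol and lipid genes in Slc7a7-/- (red circles) and Slc7a7+/+ (grey squares) macrophages; bars are 1 SE. The Slc7a7+/+ estimate lies farther from 0 for most genes, as for Idi1 (-1.83 against -2.65), but the difference passed the test for none of the 18.

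Ngp, a granule protein of neutrophil precursors, fell from 24.1, 11.8 and 48.3 to 11.8, 7.77 and 9.86 CPM in the knockout (-1.48, SE 0.34, adjusted p = 0.00969) and stood at 29.7, 23 and 22.6 and 61.7, 53.2 and 17 CPM in the control and Ac-LDL libraries of Slc7a7+/+ cells. The difference was -2.23 (SE 0.45, adjusted p = 0.0436). The neutrophil markers summed above include Ngp, so their sum is not separate from it. The sums of the 2 arms overlapped in the knockout when the mice were not paired (52.0 to 141 against 25.5 to 64.6 CPM). Taken by mouse, S100a9 fell in each, from 28.3, 16.7 and 41.3 to 27.6, 7.22 and 24.4 CPM. S100a8 and Ltf were lower with Ac-LDL in mice 2 and 3 and higher in mouse 1. Mpo, under the floor of 3 counts in control, went the other way, from 1.21, 0 and 0 to 7.09, 1.11 and 5.22 CPM. Whether a change in neutrophil-lineage cells accounts for the fall of Ngp was not tested. Leaving out a single library or mouse ended the call for Ngp (without the control library of mouse 3, the Ac-LDL library of mouse 3 or mouse 3, adjusted p up to 0.54). In the model without the mouse term the adjusted p was 0.192 for Ngp, and DESeq2 gave 0.0551 for Ngp. For Gstp1, Gm32687 and Hist1h2ah the differences rest on the shared sequence or the zeros described above, and their fitted sizes depend on the prior count of the model. Of the 15 leave-outs, 11 ended the call of the difference for Ngp, 13 for Gstp1, 6 for Hist1h2ah and 5 for Gm32687.

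Ox-LDL, given at 100 μg/mL against 50 μg/mL of Ac-LDL, offers a second lipoprotein in the same knockout cells. As the doses differ, the values are set side by side, and the direct contrast of the treated libraries describes these 2 treatments and not equal amounts of lipoprotein. In that contrast 107 genes were higher with Ac-LDL (0.871% of those tested) and 62 lower (0.504%); without the mouse term 8 genes were called in all. Leaving out any 1 mouse, or any 1 of these libraries but the Ac-LDL library of mouse 1, gave 43 to 112, the lowest without mouse 2.

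In that contrast 3 of the 10 mevalonate genes and 2 of the 12 later enzymes were called higher with Ac-LDL. Idi1 was 38.6, 37.2 and 29.6 CPM with Ac-LDL and 11.8, 13 and 11.6 CPM with Ox-LDL, with no overlap and a difference of 1.51 (SE 0.22, adjusted p = 7.85e-05), and the same held for Sqle at 1.12 (SE 0.24, adjusted p = 0.00758). The exporters Abca1 and Abcg1 had differences of -0.17 (SE 0.15, adjusted p = 0.827) and -0.35 (SE 0.12, adjusted p = 0.194), which did not pass the test.

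Cx3cr1, the fractalkine receptor, was 111, 111 and 125 CPM with Ac-LDL and 60.6, 28.7 and 27.2 CPM with Ox-LDL, and gave the smallest adjusted p of the genes higher with Ac-LDL (1.64, SE 0.17, adjusted p = 2.97e-07). Spn, the leukocyte sialoprotein CD43, differed by 1.47 (SE 0.18, adjusted p = 3.42e-06) and the selenoenzyme Gpx1 by 0.72 (SE 0.09, adjusted p = 1.18e-05). Against control, neither Cx3cr1 (-0.35), Spn (-0.19) nor Gpx1 (0.02) passed the test with Ac-LDL. Also higher with Ac-LDL than with Ox-LDL were Tlr2 (0.87) and C3 (0.85), both called, 7 of the 42 interferon-stimulated genes, 6 of the 22 MHC genes and 6 of the 28 G2/M genes.

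Some genes of lipid uptake and of the oxidative stress response were lower with Ac-LDL than with Ox-LDL. Cd36 was 569.7, 846 and 836 CPM with Ac-LDL and 1033, 1947 and 1579 CPM with Ox-LDL (-1.001, SE 0.10, adjusted p = 4.42e-08), with no overlap. Of 21 NRF2 targets 9 were lower with Ac-LDL and 0 higher, among them Prdx1, a peroxiredoxin (-0.84, SE 0.11, adjusted p = 1.18e-05), Gclm, of glutathione synthesis (-0.75, SE 0.11, adjusted p = 3.27e-05), and the heme oxygenase Hmox1 (-0.62, SE 0.11, adjusted p = 5.99e-04). Catalase (Cat) differed by -0.76 (SE 0.10, adjusted p = 7.05e-06) and Pla2g7 by -0.88 (SE 0.11, adjusted p = 3.42e-06). Of 12 markers of lipid-associated macrophages 4 were lower with Ac-LDL, Cd63 at -0.43 and Fabp5 at -0.56 among them.

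**Figure D5:**
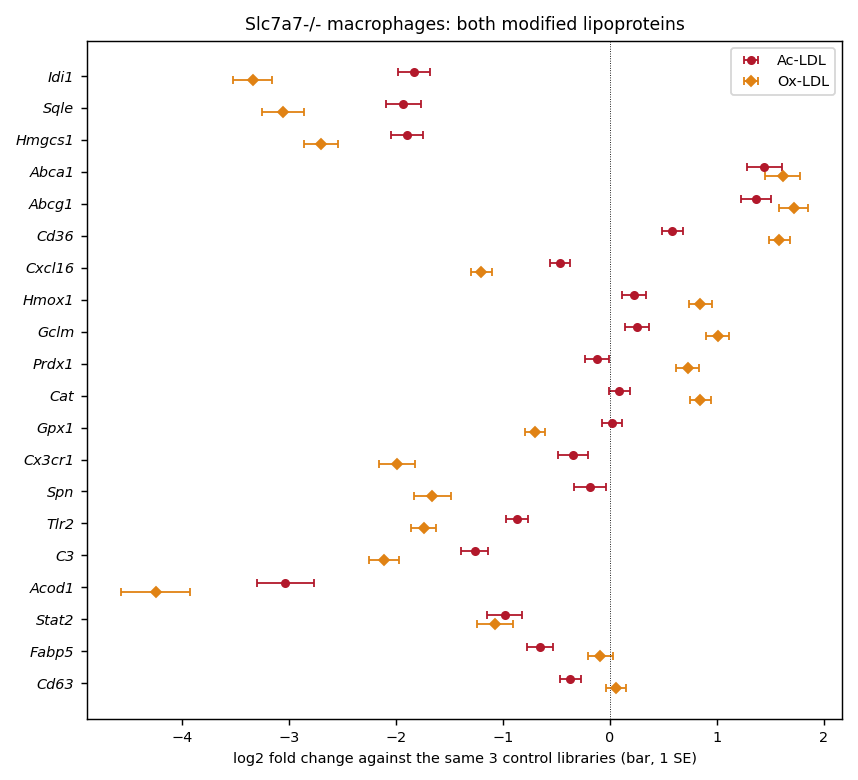
Log2 fold change against the same 3 control libraries (x axis) for 20 genes in Slc7a7-/- macrophages given Ac-LDL (red circles) or Ox-LDL (orange diamonds); bars are 1 SE. Prdx1 (0.72) and Cat (0.84) stand well above 0 with Ox-LDL and near 0 with Ac-LDL, and Idi1, Sqle and Hmgcs1 lie farther below 0 with Ox-LDL; the direct contrast tests these differences and the doses were unequal.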

How the data were processed

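RNA from cultured macrophages (18 libraries, 3 mice per genotype, each mouse given every treatment) was made into stranded total RNA libraries. The authors used STAR and Salmon with the mouse genome build mm10, per the labels, and deposited estimated counts per gene that are not normalized for depth; the annotation is Ensembl release 93 according to the paper's methods, and the strand setting of the quantification is not given in the sources used here. Estimated counts were rounded to whole numbers.

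Of 31053 genes listed, 12290 were kept by filterByExpr, with its count limit set to 2 and its total limit to 10. edgeR 4.0.16 (R 4.3.3) was run on all 18 libraries with TMM factors, a term per mouse and a term per genotype and treatment (8 residual degrees of freedom), and its quasi-likelihood test gave log2 fold changes and Benjamini-Hochberg adjusted p-values over all genes, called at 0.05. CPM are counts per 1e6 of the TMM-adjusted library size, with no prior count. SE is the log2 fold change divided by the square root of F. A prior count of 2 entered only the log2 CPM used for directions per mouse and for correlations between libraries. The fit of the model kept the default prior count of edgeR. The same model gave the difference between genotypes and the contrast of Ac-LDL with Ox-LDL. Replicates are cultures of separate mice. Libraries with the same number come from 1 animal, and in the knockout the deviations of paired Ac-LDL and control libraries from their group means correlated at 0.247, 0.209 and 0.191 over 5359 genes, so the mouse was kept as a block. Sex-linked genes gave the same sex for all libraries of a mouse, but the 3 knockout mice differed in sex. Mouse 1 was female (Xist at 2786 CPM in control and 3447 CPM with Ac-LDL), and mice 2 and 3 were male. Any part of sex in the values of mouse 1 was not tested. Gene coordinates and the share of sequence in words of 31 bases found in other genes come from GENCODE M21, and promoter windows from RefSeq.

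A few genes that meet the naming rule below are not reported here. Genes named in the text are Slc7a7, the 10 largest rises and 10 largest falls among called genes that average 5 CPM or more and move 1 way in all 3 mice, the first 3 genes and up to 5 called members with the smallest p of each of 32 lists, the called genotype differences, the 5 smallest p in each direction of Ac-LDL against Ox-LDL, and Gm26917; others are marked. The comparison, lists and named genes were chosen with earlier results of these data known, so a list's count is a description and not independent evidence. The tests were checked on simulated data. DESeq2 1.42.0, other scalings and filters, subsets of libraries and each library or mouse left out were tried as alternatives.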

Additional observations from a re-analysis of the deposited data

Results flagged for a closer look

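Each of the 4 genes below was singled out because its response to Ac-LDL differed between Slc7a7-/- and Slc7a7+/+ macrophages at an adjusted p under 0.05 in edgeR. For Ngp the difference of the log2 fold changes was -2.23, with lower levels under Ac-LDL in all 3 knockout mice and higher levels in 2 of the 3 Slc7a7+/+ mice. For Gstp1 it was 6.09, where the control libraries of the knockout had no count. Gstp2, with which Gstp1 shares 38.5% of its sequence, had 12 to 17 counts there and 0 with Ac-LDL. The sum of both was 10.2, 7.43 and 8.38 CPM in control and 10.2, 5.55 and 7.54 CPM with Ac-LDL. For Hist1h2ah the difference was -8.26 and for Gm32687 8.04, and 91.2% and 96.0% of their sequence is shared with other genes. The fitted sizes for Gstp1, Hist1h2ah and Gm32687 depend on the prior count of the model and are not bounds.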

How the results depend on the processing

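The Ac-LDL comparison gave 129 calls with DESeq2, 64 without the replicate block (the mouse term), 561 with the 6 compared libraries alone and 116 to 241 with a library or mouse left out, against 307. The genotype difference gave 0 calls without the replicate block (327 at an unadjusted p under 0.05), 1 with DESeq2, 0 with the default filter of edgeR (397 unadjusted), 24 with no filter and 0 to 4 in the leave-outs, against 5. Ac-LDL against Ox-LDL gave 8 without the replicate block, 95 with DESeq2, 269 with no filter, 281 with the 9 knockout libraries, 306 with the 6 and 43 to 120 in the leave-outs, against 169. Distinct members of the gene lists called were 32 without the replicate block, 53 with DESeq2 and 48 to 81 in the leave-outs, against 93. The cause of these changes was not tested, except that fewer libraries or genes entered some of them. None of the named genes or genotype differences called changed direction under the alternatives run. Slc7a7 stayed lower in the knockout than in Slc7a7+/+ libraries in every leave-out of both media. With library sizes not adjusted for composition the median of all genes was 0.05, and the medians of the arginine and glutamine list and the NRF2 list became 0.02 and 0.00. At 1267790 counts or more per library, genes below 1.67 to 2.36 CPM rest on fewer than 3 counts, and fold changes of such genes were not resolved at this depth.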
